A study of Mus musculus with 4 samples.

Results

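The genes of MHC class I and of its peptide loading were described across the cell classes of gonadal adipose tissue from aged mice. The 9 genes were H2-K1, H2-D1, B2m, Tap1, Tap2, Tapbp, Nlrc5, Psmb8 and Psmb9, and they were taken by gene symbol from the 31054 gene rows of each library. All 9 were found, each as 1 row, and all 9 had UMIs in every library. By role, H2-K1, H2-D1 and B2m code for the class I molecule itself, Tap1, Tap2 and Tapbp for the loading of its peptide, and Psmb8 and Psmb9 for the protease subunits that cut the peptide. Nlrc5 is no part of that machinery, but codes for a regulator that acts at class I promoters.

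The series held 4 single-cell RNA-seq libraries from gonadal white adipose tissue, made from its stromal vascular fraction, which is all cells of the fat pad except the mature adipocytes. The mice were 18 months old and carried a tamoxifen-inducible Cre recombinase driven by p16 (p16-CreERT2) together with a tdTomato reporter that Cre switches on (Rosa26-LSL-tdTomato). Cells were sorted by tdTomato and by CD45, the surface protein of leukocytes, into 2 libraries labelled CD45- (CD45- Tom+ and CD45- Tom-) and 2 labelled CD45+ (CD45+ Tom+ and CD45+ Tom-). A group was a single library, so differences between libraries had no replicate check and no test was run. All 4 groups shared the genotype, the age and the tamoxifen treatment. The number of mice pooled into each library is not given in the sources used here. Tom+ marks cells in which p16-driven Cre had acted at the time of tamoxifen, and is not a measure of p16 RNA at the time of the sort.

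MHC class I molecules display short peptides from a cell's own proteins at its surface, where CD8 T cells and natural killer cells read them. A heavy chain, such as H2-K1 or H2-D1, pairs with the light chain beta-2 microglobulin (B2m). The peptides are cut by the proteasome, carried into the endoplasmic reticulum by the transporter that Tap1 and Tap2 form, and fitted into the groove with the help of tapasin (Tapbp). Interferon exchanges some constitutive proteasome subunits for inducible ones, among them Psmb8 and Psmb9, and Nlrc5 enters the nucleus to turn on class I promoters. CD8 T cells, natural killer cells and macrophages are all among the leukocytes that live in the stroma of visceral fat.

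On GRCm38, 7 of the 9 genes lay on chromosome 17 within 1351601 bases, in the mouse major histocompatibility complex. Tapbp was at chr17:33915899-33929292, H2-K1 at chr17:33996017-34000347, and H2-D1 at chr17:35262730-35267499. The other 4 lay side by side, with Psmb9 at chr17:34181987-34187764, Tap1 at chr17:34187553-34197225, Psmb8 at chr17:34197721-34201454 and Tap2 at chr17:34203527-34216321. Psmb9 and Tap1 were annotated on opposite strands, 495 bases separated Tap1 from Psmb8, and 2072 bases separated Psmb8 from Tap2. B2m lay at chr2:122147686-122153083 and Nlrc5 at chr8:94434356-94527272. All positions span the whole annotated gene, and the reads of a 3′ library come mostly from its last exon. In the last 500 bases of each gene's longest coding transcript, 0 of 411 windows of 90 bases occurred in the transcripts of another gene, so reads there could be assigned to 1 gene on the reference. The mouse strain is not given in the sources used here, and H2 genes differ between strains. How far such differences moved the H2-K1 and H2-D1 counts was not tested.

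Promoter sequences bear on these genes because Nlrc5 has no DNA-binding domain and acts through factors bound at a short shared block. RefSeq promoter windows (GRCm38.p6), from 250 bases before to 50 bases after a start site, were at hand for 7 of the 9 genes, in 8 windows. The 180 bases before the start site are shown for the heavy chains and the light chain, 5′ to 3′ on the coding strand, to show the layout they share. H2-K1 is from chr17:34000348-34000527, minus strand, H2-D1 from chr17:35262914-35263093, plus strand, and B2m from chr2:122147507-122147686, plus strand. Capitals mark matches, on either strand, to GGGATTCCC (a kappa B site), TTTCACTTC and GAAANNGAA (interferon response elements), TGACG (the core of the X2 box) and ATTGG (the Y box, read as CCAAT on the other strand).
H2-K1: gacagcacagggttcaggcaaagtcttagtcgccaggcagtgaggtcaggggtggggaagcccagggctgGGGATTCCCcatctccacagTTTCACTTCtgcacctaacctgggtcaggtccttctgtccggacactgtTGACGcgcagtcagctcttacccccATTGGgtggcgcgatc
H2-D1: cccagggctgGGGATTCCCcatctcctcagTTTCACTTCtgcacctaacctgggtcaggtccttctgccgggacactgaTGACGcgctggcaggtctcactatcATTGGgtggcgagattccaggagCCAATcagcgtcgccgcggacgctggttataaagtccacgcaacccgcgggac
B2m: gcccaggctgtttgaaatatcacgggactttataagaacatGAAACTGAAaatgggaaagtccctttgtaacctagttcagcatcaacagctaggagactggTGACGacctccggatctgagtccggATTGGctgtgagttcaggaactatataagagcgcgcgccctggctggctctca

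In H2-K1 the motifs GGGATTCCC, TTTCACTTC, TGACG and ATTGG began 110, 90, 41 and 16 bases before the start site of the window shown, and 124, 104, 55 and 30 bases before the start site of its other RefSeq window, and in H2-D1 they began 170, 150, 101 and 76 bases before it. Both heavy chains thus held the same 4 motifs in the same order and at the same spacing, with 20 bases from the start of GGGATTCCC to that of TTTCACTTC and 69 to that of TGACG. B2m had no GGGATTCCC or TTTCACTTC in its window, but had GAAACTGAA at 139, TGACG at 78 and ATTGG at 53 bases before its start site. TGACG followed by ATTGG with 20 bases between them was found in the windows of H2-K1, H2-D1 and B2m, and in 31 of 32851 promoter windows in all (0.0944%, from 27 genes). Taken singly the motifs were common or rare by their length, with GGGATTCCC in 0.353% of all windows, TTTCACTTC in 0.505%, GAAANNGAA in 8.56%, TGACG in 20.8% and ATTGG in 37.4%. The windows of Tap1 and Psmb9 shared 275 bases, read on opposite strands, and held 1 TGACG in common. These letters are descriptions of the reference sequence and not evidence of binding, and the motifs were chosen after the sequences were seen.

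The 4 libraries held 33567 barcodes, of which 13878 cells passed the filters, with a median of 18331 to 19502 UMIs per cell. Clustering gave 29 clusters, and 21 of them, with 10727 cells (77.3%), took the name of 1 of 14 classes from marker genes, written with "-like". The CD45 labels did not separate leukocytes, since Ptprc, which codes for CD45, was at 217 CPM in CD45- Tom+, 158 in CD45- Tom-, 223 in CD45+ Tom+ and 188 in CD45+ Tom-. The tdTomato RNA followed its label (713, 15.99, 715 and 18.8 CPM in that order). Cdkn2a, the p16 gene, ranged only from 6.81 to 7.64 over whole libraries, which differed in their mix of classes. By class mean it was 33.4 in cluster 7 and 5.49 in APC-like cells, both described below. Each library is therefore named by its label, and classes rest on markers alone. Some barcodes occurred in more than 1 library (26 to 4394 per pair), but 82 of the kept cells (0.591%) shared one, and without them all 56 log2 ratios recomputed stayed close to the reported values, each inside its interval of counting error.

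The level of a gene in a class and library is given as CPM, its share of all UMIs on a fixed scale, from UMIs summed over the cells, with an exact Poisson 95% interval that covers counting error only. Only classes of at least 50 cells in a library were used, which gave 51 combinations of class and library over 20 classes and numbered clusters. APC-like stands for adipose progenitor cells, the fibroblast-like stem cells of fat (Pdgfra, Dpt, Lum, Dcn). Among the clusters that took no class name, cluster 12 was led by the endothelial genes Cldn5, Gpihbp1 and Cdh5, cluster 2 by Arg1, Ccl6 and Spp1, and cluster 7 by Saa3, Cxcl13 and Ptgis. These leading genes were named after their values were seen.

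Class I heavy and light chains were detected in every class, and their levels differed by class more than by library. H2-K1 had its highest class mean in NK cell-like cells, at 3040.3 (95% interval 2878 to 3209) in CD45- Tom+ and 3411 (95% interval 3248 to 3581) in CD45+ Tom-. Mesothelial-like cells, which form the lining on the surface of visceral fat, had 3157 in CD45- Tom+, 2830.4 in CD45- Tom- and 2974 in CD45+ Tom-, so that they were above NK cell-like cells in CD45- Tom+ and the ranges of these classes overlapped. T cell-like cells had 2533 in CD45- Tom+, 2675 in CD45- Tom-, 2463 in CD45+ Tom+ and 2669.9 in CD45+ Tom-. Each of these 3 classes was above every APC-like and macrophage-like value. APC-like cells had 1273 in CD45- Tom+, 1161 in CD45- Tom-, 1095 in CD45+ Tom+ and 1179.7 in CD45+ Tom-, and macrophage-like cells had 1118 to 1215 over the 4 libraries. Within a library, H2-K1 was 2.44 to 2.52 times as high in mesothelial-like as in APC-like cells (3 libraries), and 1.99 to 2.305 times as high in T cell-like cells (4 libraries). The 95% interval reached at most 3.69% to either side of an APC-like value and 5.56% of an NK cell-like one. From the highest to the lowest of the 20 classes, mean H2-K1 fell by a factor of 3.52.

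H2-D1, the other classical heavy chain measured, had a different order. Neutrophil-like cells led with 2754 (95% interval 2598 to 2916) in CD45- Tom- and 2805 (95% interval 2666 to 2949.8) in CD45+ Tom-. NK cell-like cells had 2249 in CD45- Tom+ and 2690.0 in CD45+ Tom-, and monocyte-like cells had 2382 in CD45+ Tom-, their only library with 50 cells. Macrophage-like cells had 1777 in CD45- Tom+, 1872 in CD45- Tom-, 1705 in CD45+ Tom+ and 1822 in CD45+ Tom-. APC-like cells had 1181 in CD45- Tom+, 1112 in CD45- Tom-, 1047 in CD45+ Tom+ and 1133 in CD45+ Tom-. Neutrophil-like, monocyte-like and macrophage-like cells thus lay above APC-like cells in H2-D1, by 1.51 to 1.68 times for macrophage-like cells, whereas mast-like cells, also myeloid, had 1067 in CD45- Tom+ and 1040.2 in CD45+ Tom+. For H2-K1 macrophage-like cells had 0.954 to 1.02 times the APC-like level. Mesothelial-like cells, far above macrophage-like cells in H2-K1 (2.43 to 2.61 times), had 0.913 to 0.982 times their H2-D1.

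The share of H2-K1 among the UMIs of both heavy chains put the classes in order without use of the total. It was 62.4% to 65.7% in mesothelial-like cells, 58.3% to 60.9% in plasma cell-like cells and 55.1% to 56.8% in T cell-like cells. APC-like cells sat at 51.01% to 51.9% in all 4 libraries. Macrophage-like cells had 38.3% to 40.6%, monocyte-like cells 40.9% and neutrophil-like cells 29.7% to 34.5%. The ranges of macrophage-like, APC-like, T cell-like and mesothelial-like cells did not overlap. Cluster 2, led by Arg1, Ccl6 and Spp1, had 49.3% to 51.3%, which overlapped APC-like cells. The macrophage-like class also held unlike clusters, described below. In its cluster 13, H2-K1 (1647 to 1906 CPM) was level with H2-D1 (1586 to 1927). In its cluster 4, H2-K1 was 942 to 1096 and H2-D1 1714 to 1913. The share is compared between classes only, since the genes differ in length and in how their 3′ ends are captured.

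B2m, which every class I heavy chain needs to reach the surface, varied least, by a factor of 2.22 between the highest and the lowest class mean. It was 3287 (95% interval 3149.6 to 3429) in monocyte-like cells of CD45+ Tom-. Mesothelial-like cells had 3251 in CD45- Tom+, 3092 in CD45- Tom- and 3243 in CD45+ Tom-, and NK cell-like cells had 2493 in CD45- Tom+ and 3311 in CD45+ Tom-. APC-like cells had 1649.9 in CD45- Tom+, 1588 in CD45- Tom-, 1272 in CD45+ Tom+ and 1597 in CD45+ Tom-, and B cell-like cells had 1476 in CD45- Tom+, 1604 in CD45- Tom-, 1354 in CD45+ Tom+ and 1490.4 in CD45+ Tom-. Of the 19 neighbouring pairs in the order of class means, 17 had ranges over libraries that overlapped. Classes further apart in the order did separate, such as T cell-like cells (2275 to 2604) and macrophage-like cells (1549.7 to 1773).

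Plasma cell-like cells held the lowest H2-D1, at 624 in CD45- Tom+, 639 in CD45+ Tom+ and 866 in CD45+ Tom-, and the lowest Tapbp. In these cells 47.95% to 54.8% of all UMIs were immunoglobulin, mitochondrially encoded, haemoglobin or tdTomato RNA. With totals that leave those UMIs out, an alternative chosen after the values were seen, their H2-D1 was 1379, 1369 and 1665 in the same libraries. The lowest class for H2-D1 was then cluster 24, and the fold from highest to lowest was 2.71. B2m turned over most, with plasma cell-like cells the highest class of the 20 (mean 4152) and APC-like cells the lowest (mean 1601). The highest class was the same for the other 8 genes under both totals.

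**Figure D1:**
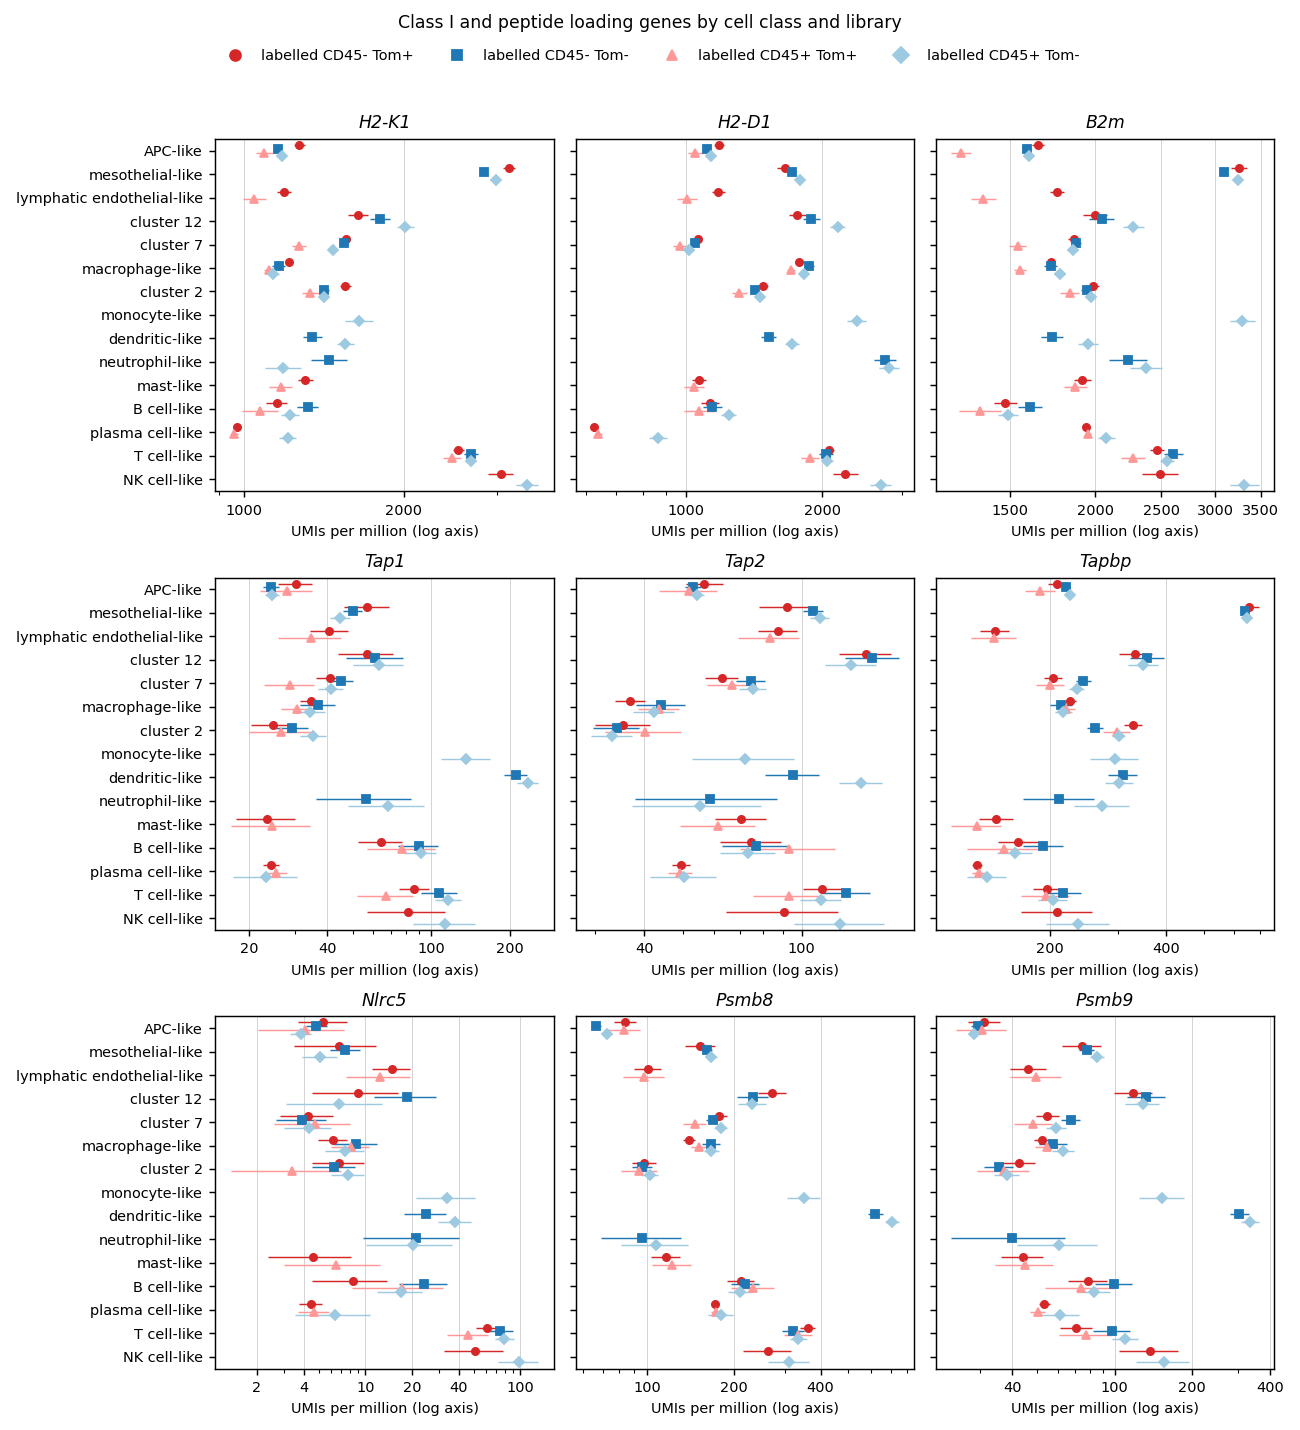
Level of each of the 9 genes (CPM, log axis) for the main classes and clusters 2, 7 and 12, 1 point per library with at least 50 cells and exact Poisson 95% intervals as bars. Points of 1 class from different libraries mostly lie close together beside the distance between the highest and lowest classes. Over all 20 classes and clusters, ranges overlapped for 11 (H2-D1) to 17 (B2m) of the 19 neighbouring pairs of a gene. Psmb8 and Psmb9 peak in dendritic-like cells and Tapbp in mesothelial-like cells. The place of plasma cell-like cells changes when immunoglobulin, mitochondrial, haemoglobin and tdTomato UMIs are together left out of the totals.

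The genes for peptide transport and loading did not share 1 order of classes. Tap1 was highest in dendritic-like cells, the professional cross-presenting cells, at 211 (95% interval 189.6 to 234) in CD45- Tom- and 234 (95% interval 213 to 257) in CD45+ Tom-. T cell-like cells had 86.02 in CD45- Tom+, 108 in CD45- Tom-, 67.1 in CD45+ Tom+ and 116 in CD45+ Tom-. APC-like cells had 30.2 in CD45- Tom+, 24.3 in CD45- Tom-, 27.97 in CD45+ Tom+ and 24.5 in CD45+ Tom-. Dendritic-like cells stood 8.68 to 9.55 times above APC-like cells and 5.72 to 6.84 times above macrophage-like cells in the same libraries. Mast-like cells, with 23.4 in CD45- Tom+ and 24.6 in CD45+ Tom+, were at the foot of the order, a factor of 9.27 below dendritic-like cells by class means.

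Tap2, the partner of Tap1 in the transporter, spread over a smaller range. Cluster 12, led by endothelial genes, had the highest values, at 145 in CD45- Tom+, 151 in CD45- Tom- and 133 in CD45+ Tom-. Dendritic-like cells had 94.9 in CD45- Tom- and 141 in CD45+ Tom-, and T cell-like cells had 113 in CD45- Tom+, 129.8 in CD45- Tom-, 93.2 in CD45+ Tom+ and 112 in CD45+ Tom-. The dendritic-like range overlapped both of the others, while the cluster 12 values were all above the T cell-like ones. Macrophage-like cells had 36.8 in CD45- Tom+, 43.99 in CD45- Tom-, 43.6 in CD45+ Tom+ and 42.3 in CD45+ Tom-, below the 51.8 to 56.8 of APC-like cells in every library. Macrophage-like cells were thus 0.648 to 0.841 times APC-like cells for Tap2 but 1.09 to 1.52 times for Tap1.

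Tapbp, which codes for the tapasin that holds an empty class I molecule at the transporter, was set apart by the mesothelial-like cells. They had 657 (95% interval 620.2 to 696) in CD45- Tom+, 639.7 (95% interval 625 to 655) in CD45- Tom- and 649 (95% interval 635 to 664) in CD45+ Tom-. The next class, cluster 12, had 332 to 357, and dendritic-like cells had 309 in CD45- Tom- and 301 in CD45+ Tom-. APC-like, macrophage-like, NK cell-like and T cell-like cells all lay between 188 and 236. Mesothelial-like cells were 2.89 to 3.15 times APC-like cells and 2.96 to 3.35 times T cell-like cells in the same library. T cell-like cells, high in H2-K1, Tap1 and Psmb8, were at 0.902 to 1.03 times APC-like cells for Tapbp.

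Nlrc5, the class I transactivator, rested on the fewest UMIs and had the widest range of the 9, with class means 19.7-fold apart. NK cell-like cells had 51.02 (95% interval 31.97 to 77.2) in CD45- Tom+ and 98.2 (95% interval 72.2 to 131) in CD45+ Tom-. T cell-like cells had 60.6 (95% interval 51.8 to 70.4) in CD45- Tom+, 74.1 (95% interval 61.1 to 89.1) in CD45- Tom-, 46.1 (95% interval 33.7 to 61.5) in CD45+ Tom+ and 78.8 (95% interval 68.3 to 90.4) in CD45+ Tom-. Dendritic-like cells had 24.6 in CD45- Tom- and 37.9 in CD45+ Tom-. Monocyte-like cells had 33.7 (95% interval 21.1 to 51.00) in their only library. Every NK cell-like and T cell-like value was above every value of the other classes and clusters. APC-like cells had 5.37 (95% interval 3.68 to 7.59) in CD45- Tom+, 4.83 (95% interval 4.13 to 5.62) in CD45- Tom-, 4.103 (95% interval 2.05 to 7.34) in CD45+ Tom+ and 3.83 (95% interval 3.26 to 4.47) in CD45+ Tom-. Mesothelial-like cells had 6.76 in CD45- Tom+, 7.41 in CD45- Tom- and 5.12 in CD45+ Tom-, which overlapped the APC-like range, although their H2-K1, B2m and Tapbp were among the highest. Within a library, mesothelial-like Nlrc5 was 1.26 to 1.53 times the APC-like level. The 95% interval of that fold excluded 1 only in CD45- Tom- (1.16 to 2.01). With every cell thinned to 2000 UMIs, the share of cells with an Nlrc5 UMI was 10.8% to 15.6% in T cell-like cells and 0.643% to 1.12% in APC-like cells. Without thinning it was 27.7% to 40.8% and 8.29% to 9.58%, for median depths of 5965 to 7355 UMIs in T cell-like and 21348.5 to 23480 in APC-like cells. No class that lacks class I genes was at hand to set a background for such shares.

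Across classes, Nlrc5 was alike in pattern to some of the other members and not to others. Over the 51 points, the Pearson correlation of log2 levels with Nlrc5 was 0.81 for Tap1, 0.65 for H2-D1, 0.56 for H2-K1 and 0.03 for Tapbp. Without the 3 mesothelial-like points it was 0.74 for H2-K1 and 0.17 for Tapbp. Points of 1 library share their depth and preparation, and points of 1 class share their cells' identity, so these values are descriptions.

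**Figure D2:**
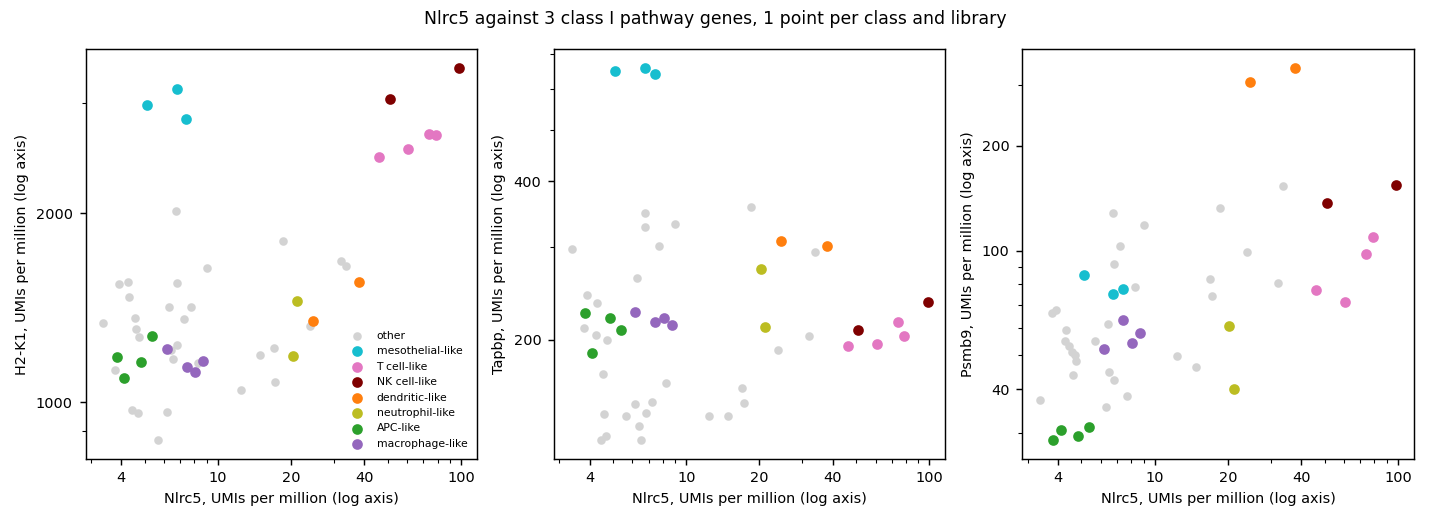
Level of Nlrc5 on the horizontal axis against H2-K1, Tapbp and Psmb9 on the vertical axes of separate panels (CPM, log axes), 1 point for each of the 51 combinations of class and library. The mesothelial-like points sit at low Nlrc5, 5.12 to 7.41, and high H2-K1, 2830.4 to 3157, while T cell-like and NK cell-like points are high in both; for Tapbp the T cell-like and NK cell-like points lie level with APC-like and macrophage-like ones.

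Psmb8 and Psmb9, catalytic subunits of the immunoproteasome, were highest in dendritic-like cells and lowest in APC-like cells. For Psmb8, dendritic-like cells had 619.7 (95% interval 583 to 658) in CD45- Tom- and 708 (95% interval 669.9 to 747) in CD45+ Tom-. T cell-like cells had 361 in CD45- Tom+, 322 in CD45- Tom-, 335 in CD45+ Tom+ and 335 in CD45+ Tom-, and macrophage-like cells had 139.7 to 167. APC-like cells had 83.8 in CD45- Tom+, 66.5 in CD45- Tom-, 82.8 in CD45+ Tom+ and 72.7 in CD45+ Tom-, a factor of 9.31 to 9.73 below dendritic-like cells of the same library. The order held at matched depth, with a Psmb8 UMI in 60.5% to 67.4% of dendritic-like cells and 12.2% to 17.9% of APC-like cells thinned to 2000 UMIs, against 95.8% to 98.8% and 65.6% to 75.1% without thinning.

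For Psmb9, dendritic-like cells had 305 (95% interval 279 to 332) in CD45- Tom- and 335 (95% interval 309 to 362) in CD45+ Tom-. NK cell-like cells had 137 in CD45- Tom+ and 155 in CD45+ Tom-, and T cell-like cells had 70.97 in CD45- Tom+, 97.7 in CD45- Tom-, 77.2 in CD45+ Tom+ and 109.8 in CD45+ Tom-. APC-like cells had 31.2 in CD45- Tom+, 29.4 in CD45- Tom-, 30.6 in CD45+ Tom+ and 28.6 in CD45+ Tom-. Dendritic-like cells were 10.4 to 11.7 times APC-like cells. In neutrophil-like cells, which led in H2-D1, Psmb8 was 0.576 to 0.641 and Psmb9 0.6900 to 0.964 times the macrophage-like level. Class means of the 9 genes lay 2.22-fold to 19.7-fold apart, where the median of 10167 genes that reached 20 CPM in a class was 15.1-fold.

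Each inducible subunit replaces a constitutive one in the proteasome, so the share of the pair's UMIs from the inducible gene compares classes independently of the total. Psmb8 made up 83.2% to 84.99% of Psmb8 and Psmb5 UMIs in dendritic-like cells and 80.1% to 82.4% in T cell-like cells. It made up 58.9% to 63.3% in mesothelial-like, 48.9% to 56.3% in macrophage-like and 44.1% to 49.01% in APC-like cells. Lymphoid and dendritic classes did not overlap the stromal ones. Psmb9 made up 68.8% to 69.9% of Psmb9 and Psmb6 UMIs in dendritic-like, 44.4% to 55.8% in T cell-like and 38.2% to 41.2% in mesothelial-like cells. The low end differed, with macrophage-like cells at 16.5% to 19.05% under the APC-like 20.4% to 24.8%.

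Psmb10, the third inducible subunit and no member of the 9, was added because the exchange involves all 3 pairs. It did not follow Psmb8 and Psmb9, with 63.2% to 65.7% of Psmb10 and Psmb7 UMIs in mesothelial-like cells, 58.2% to 61.9% in T cell-like cells, 44.96% to 50.4% in dendritic-like cells and 45.9% to 51.6% in APC-like cells. Dendritic-like cells, first for the other pairs, overlapped APC-like cells for this one. Psmb10 lies outside the chromosome 17 block that holds Psmb8 and Psmb9.

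**Figure D3:**
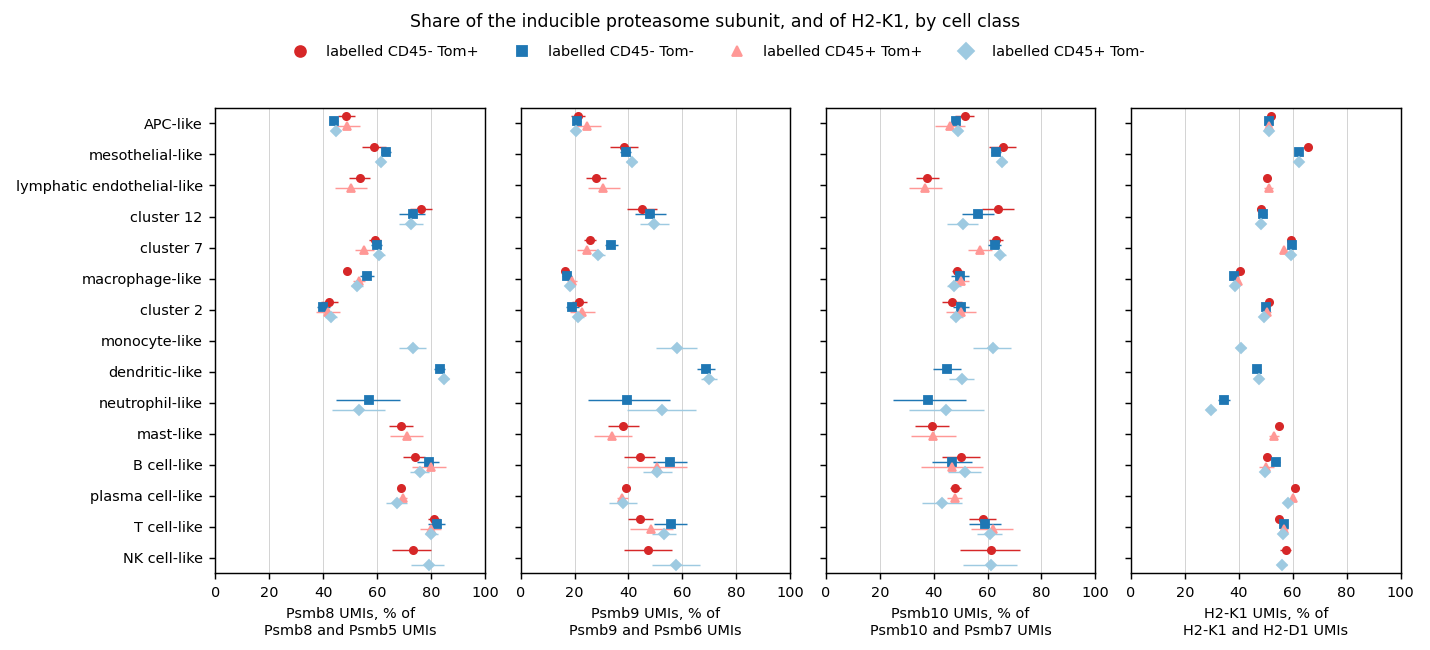
Share (percent of UMIs) of the inducible gene in each proteasome pair and of H2-K1 among both heavy chains, by class, 1 point per library with exact binomial 95% intervals as bars. Dendritic-like cells are at the top for Psmb8 and Psmb9 but not for Psmb10, and mesothelial-like cells have the highest share of H2-K1 while neutrophil-like cells have the lowest.

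Of the 4 genes that lie side by side, Psmb8, Psmb9 and Tap1 were most alike across classes. Over the 51 points Psmb8 and Psmb9 correlated at 0.92, Tap1 and Psmb9 at 0.86, and Tap1 and Psmb8 at 0.81. Tap2, their neighbour, correlated at 0.68 with Tap1, 0.62 with Psmb8 and 0.68 with Psmb9, below pairs on different chromosomes such as Tap1 and Nlrc5 (0.81). H2-K1 and B2m, on different chromosomes, correlated at 0.83, while Tapbp and Psmb8 were at 0.09. Without the mesothelial-like points these were 0.92, 0.86, 0.82, 0.76 and 0.16. The genes with the pattern most like each member, among those with a mean of at least 20 CPM, included other class I genes for several members. For H2-K1 they were B2m (0.83), Idnk (0.77) and H2-T22 (0.77), and for B2m they were H2-K1 (0.83), Irf7 (0.64) and Idnk (0.61). For Tap2 they were H2-Q4 (0.87), H2-Q6 (0.87) and Nmi (0.84), of which H2-Q4 and H2-Q6 code for nonclassical class I heavy chains. For Psmb9 they were Psmb8 (0.92), Tap1 (0.86) and Psme1 (0.79), where Psme1 codes for a subunit of the proteasome activator PA28.

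For H2-D1, Tapbp and Nlrc5 the most alike genes lay outside the class I pathway. Tap1 and Psmb8 had genes of the pathway among theirs. For H2-D1 the 3 most alike were Ifngr1 (0.84), Rab8a (0.83) and Frg1 (0.82), with Ifngr1 the receptor chain that binds interferon-gamma. For Tapbp they were Prg4 (0.82), Sppl2a (0.79) and Fas (0.78), and for Nlrc5 Sept6 (0.86), Vps37b (0.86) and Sh2d2a (0.85). For Tap1 they were Psmb9 (0.86), Psme1 (0.84) and Cnn2 (0.83), and for Psmb8 Psmb9 (0.92), Tap1 (0.81) and Nup210 (0.79). Each value in brackets is a Pearson correlation of log2 levels over the same 51 points.

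Within classes, clusters differed in class I genes as well. The macrophage-like class held cluster 13, led by Arg1, Vsig4, Marco and Lyve1, and cluster 4, led by Gpnmb, C1qb, Mmp12 and Trem2. H2-K1 in cluster 13 was 1906 in CD45- Tom+, 1647 in CD45- Tom-, 1713 in CD45+ Tom+ and 1834 in CD45+ Tom-. In cluster 4 it was 1026 in CD45- Tom+, 1096 in CD45- Tom-, 942 in CD45+ Tom+ and 1021 in CD45+ Tom-. The values did not overlap, and cluster 13 was 1.504 to 1.86 times as high within a library. B2m (1.41 to 1.61 times) and Tapbp (1.88 to 2.22 times) had the same direction in all 4 libraries. Psmb8 had the opposite one, with 69.8 to 117 in cluster 13 and 155 to 183 in cluster 4, and so did Psmb9, with 39.5 to 46.96 and 55.8 to 66.1. H2-D1 overlapped, at 1586 to 1927 and 1714 to 1913. The macrophage-like level of a library is therefore a mean over cells of unlike class I make-up. These leading genes too were named after their values were seen, and clusters of at least 30 cells in a library were used.

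Among APC-like cells, cluster 20, led by Clec3b, Fbn1, Pi16 and Sema3c, stood lowest. It had 70 cells in CD45- Tom- and 76 in CD45+ Tom-, with 9 and 3 in CD45- Tom+ and CD45+ Tom+, and the other APC-like clusters were likewise mostly in the Tom- libraries. H2-K1 there was 623 in CD45- Tom- and 596 in CD45+ Tom-, while clusters 0, 3 and 6 of the same class had 973 to 1520.5 over all libraries. Relative to cluster 0 of the same library, cluster 20 had 0.515 to 0.544 times the H2-K1, 0.496 to 0.564 times the H2-D1 and 0.623 to 0.695 times the B2m. Tapbp did not share this, at 0.969 to 1.04 times cluster 0. Pi16 and Clec3b are known from early progenitors of the adipose interstitium.

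T cell-like cells came from cluster 9, led by Ccl5, Trbc2 and Nkg7, and cluster 11, led by the gamma-delta T cell genes Trdc, Cd163l1 and Tcrg-C1. Nlrc5 in cluster 9 was 88.4 in CD45- Tom+, 85.3 in CD45- Tom-, 75.2 in CD45+ Tom+ and 89.98 in CD45+ Tom-, and in cluster 11 it was 47.2 in CD45- Tom+, 44.8 in CD45- Tom-, 31.6 in CD45+ Tom+ and 49.9 in CD45+ Tom-. Cluster 9 was 1.802 to 2.38 times cluster 11 for Nlrc5, 1.53 to 2.16 times for Psmb9 and 1.35 to 1.59 times for Tap1. H2-D1 was the other way round, at 0.766 to 0.888 times. The clusters were unequally shared, with cluster 11 holding 67.5% of T cell-like cells in CD45- Tom+ and 62.8% in CD45+ Tom+, but 24.1% in CD45- Tom- and 25.4% in CD45+ Tom-.

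Leukocyte-like and stromal-like classes (APC-like and mesothelial-like) were then compared within each library. The highest named class was a leukocyte-like one for 6 of 9 genes in CD45- Tom+, 6 in CD45- Tom-, 9 in CD45+ Tom+ and 8 in CD45+ Tom-. Among all genes this was so for 54%, 65.7%, 59.5% and 71.2% in the same order. In CD45- Tom+ and CD45- Tom- the 3 exceptions were H2-K1, B2m and Tapbp, highest in mesothelial-like cells. CD45+ Tom+ held 33 mesothelial-like cells, too few to enter.

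By the ratio of the median over leukocyte-like classes to that over stromal-like classes, 1, 4, 3 and 4 genes were at least 1.5-fold higher in leukocyte-like classes in the libraries in the order above, and 2, 1, 0 and 1 were lower. Of all genes at 5 CPM or more on average, 14.3%, 20%, 17.6% and 17.7% were higher by that fold, and 43.1%, 39.8%, 39.3% and 41.6% were lower. Psmb8 was higher past that fold in all 4 libraries, with log2 ratios of 0.69 in CD45- Tom+, 0.94 in CD45- Tom-, 1.07 in CD45+ Tom+ and 1.12 in CD45+ Tom-. For Nlrc5 the log2 ratio was 0.25 in CD45- Tom+, 1.97 in CD45- Tom-, 0.98 in CD45+ Tom+ and 2.59 in CD45+ Tom-. Tapbp was lower, at -1.26 in CD45- Tom+, -1.01 in CD45- Tom-, -0.31 in CD45+ Tom+ and -0.95 in CD45+ Tom-, and H2-K1 was at -0.81 in CD45- Tom+, -0.57 in CD45- Tom-, 0.03 in CD45+ Tom+ and -0.58 in CD45+ Tom-. In CD45+ Tom+ APC-like cells were the only stromal-like class, so its values are not on the same footing as the other libraries'. In the other libraries the stromal-like median lay midway between APC-like and mesothelial-like cells. Against APC-like cells alone, H2-K1 was 1.99 to 2.305 times in T cell-like, 2.39 to 2.89 in NK cell-like and 0.954 to 1.02 in macrophage-like cells. Tapbp was 0.902 to 1.03, 1.001 to 1.05 and 0.962 to 1.17 times. Plasma cell-like and mast-like cells had less Tapbp (129 to 144 CPM) than APC-like cells (188 to 225). The count in CD45- Tom+ went from 1 to 3 when immunoglobulin and the other abundant UMIs were left out of the totals, and to 0 when every cell weighed the same.

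The sort by tdTomato was the contrast of the study, and it was made within the pair of libraries labelled CD45- and within the pair labelled CD45+. In APC-like cells 0 of 9 genes in the pair labelled CD45- and 0 of the 8 tested in the pair labelled CD45+, where Nlrc5 was under 5 CPM, were 1.5-fold higher or lower in Tom+ than Tom-. Of all genes 2.15% were higher and 1.29% lower in the pair labelled CD45-, and 2.8% were higher and 3.57% lower in the pair labelled CD45+, so that a count of 0 was near the background. H2-K1 had a log2 ratio of 0.13 (95% interval 0.10 to 0.17) in the pair labelled CD45- and -0.11 (95% interval -0.16 to -0.05) in the pair labelled CD45+. B2m had 0.06 (95% interval 0.02 to 0.09) and -0.33 (95% interval -0.38 to -0.28). Both intervals excluded 0, on opposite sides, for each of these genes and for H2-D1. Psmb8, the inducible protease subunit, had 0.33 (95% interval 0.19 to 0.47) and 0.19 (95% interval -0.02 to 0.38), and in the pair labelled CD45- it passed 1.5-fold with a looser cell filter (0.79), at a finer clustering (0.60) and with more variable genes (0.68). Tap1 had 0.32 (95% interval 0.08 to 0.55) and 0.19 (95% interval -0.17 to 0.53). These last ratios were above 0 in both pairs, but with intervals that held 0 in the pair labelled CD45+. Over all genes the median was -0.04 and -0.05. The intervals cover counting error, not the difference between one library and the next.

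In macrophage-like cells 0 of 9 genes passed 1.5-fold in either direction in either pair (2.58% of all genes higher and 2.3% lower in the pair labelled CD45-, 3.05% and 2.96% in the pair labelled CD45+). H2-K1 was at 0.06 and -0.03 in the 2 pairs, that labelled CD45- first. B2m was at 0.00 and -0.19, and Psmb8 at -0.26 and -0.14. Nlrc5 was at -0.50 (95% interval -1.06 to 0.09) and 0.12 (95% interval -0.48 to 0.71), on few UMIs. Class II genes differed more in the same cells. The 5 tested genes of class II and its transactivator had 2 past 1.5-fold lower in the pair labelled CD45- and 5 in the pair labelled CD45+, with Ciita at -0.87 and -0.94 and Cd74 at -0.57 and -0.68. Class II molecules display peptides from outside the cell, and Ciita is to them what Nlrc5 is to class I. The mix of clusters differed here too. Cluster 13 held 162 of 551 macrophage-like cells in CD45- Tom+ and 37 of 201 in CD45- Tom-. It held 97 of 278 in CD45+ Tom+ and 58 of 272 in CD45+ Tom-. Over 10 other settings of the processing, Psmb8 ran from -0.34 to 0.15 and from -0.27 to 0.14. The part of the mix in the class II ratios was not tested.

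In T cell-like cells, past 1.5-fold were 0 of 9 genes in the pair labelled CD45- (8.9% of all genes higher, 14.4% lower) and 2 of 9, both lower, in the pair labelled CD45+ (9.95% higher, 15.7% lower). Tap1 was 67.1 in CD45+ Tom+ and 116 in CD45+ Tom-, a log2 ratio of -0.79 (95% interval -1.19 to -0.40), against -0.32 (95% interval -0.61 to -0.03) in the pair labelled CD45-. Nlrc5 had -0.77 (95% interval -1.27 to -0.31) and -0.29 (95% interval -0.64 to 0.07). The mix of clusters differed by library, as given above. Within cluster 9, Tap1 had -0.64 (95% interval -1.27 to -0.06) in the pair labelled CD45+ and -0.05 (95% interval -0.43 to 0.33) in the pair labelled CD45-, and within cluster 11 -0.56 (95% interval -1.17 to 0.03) and -0.11 (95% interval -0.67 to 0.49). Only the first of these 4 intervals excluded 0. Within cluster 9, Nlrc5 had -0.26 (95% interval -0.93 to 0.35) in the pair labelled CD45+ and 0.05 (95% interval -0.40 to 0.50) in the pair labelled CD45-. Within cluster 11 it had -0.66 (95% interval -1.51 to 0.15) and 0.07 (95% interval -0.65 to 0.87). All 4 intervals for Nlrc5 held 0. With both libraries set to 1 mix of clusters, Tap1 was at -0.61 in the pair labelled CD45+ and Nlrc5 at -0.37, and only Tap1 was past 1.5-fold. Psmb9 went from -0.46 and -0.51 to -0.20 and -0.11 under the same mix. With 2 of 9 against 15.7% of all genes, the T cell-like count was near its background.

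In B cell-like cells the count was 1 of 9 lower in the pair labelled CD45- (6.02% of all genes higher, 19.1% lower) and 0 in the pair labelled CD45+ (10.5% higher, 17.2% lower). The gene was Nlrc5, with 14 UMIs in CD45- Tom+ and 34 in CD45- Tom-, a log2 ratio of -1.53 (95% interval -2.54 to -0.59). In the pair labelled CD45+ it was 0.02 (95% interval -1.15 to 1.06), and with cells thinned to 2000 UMIs the sign in the pair labelled CD45- turned, to 0.81. In all, 71 values at 5 CPM or more over 8 classes and clusters in the pair labelled CD45- had 0 higher and 2 lower, where 5.15% of such values of all genes were higher and 7.8% lower. In the pair labelled CD45+, 61 values over 7 had 0 higher and 3 lower, where 5.45% were higher and 9.67% lower. Of these 5 values 4 were Nlrc5, among them cluster 12 with -1.04 (95% interval -2.25 to 0.09) and cluster 2 with -1.19 (95% interval -2.56 to -0.07).

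**Figure D4:**
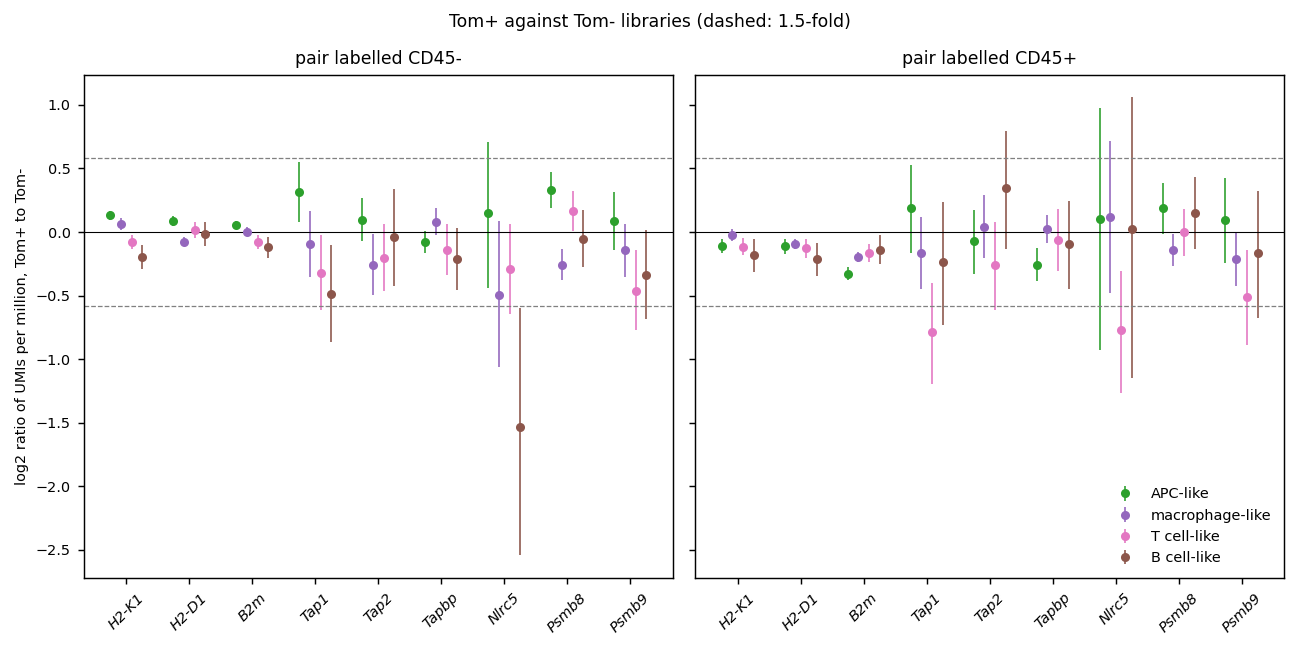
Log2 ratio of Tom+ to Tom- for each of the 9 genes in APC-like, macrophage-like, T cell-like and B cell-like cells, with the pairs of libraries in separate panels and exact 95% intervals of counting error as bars; the dashed lines mark 1.5-fold. The points outside the lines are Nlrc5 in B cell-like cells of the pair labelled CD45-, and Tap1 and Nlrc5 in T cell-like cells of the pair labelled CD45+, and in that pair the heavy chains and B2m lie below 0 in all 4 classes.

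The size of these differences can be set beside those between libraries with the same Tom label, a comparison added after the values were seen. CD45+ Tom+ against CD45- Tom+ gave 99 values over 11 classes and clusters, 96 of them at 5 CPM or more, of which 1 was higher and 1 lower past 1.5-fold (5.33% and 4.72% over all genes). CD45+ Tom- against CD45- Tom- gave 90 over 10, 88 of them at 5 CPM or more, of which 2 were higher and 1 lower (4.85% and 5.97% over all genes). Intervals lay above 0 for 3 and below 0 for 26 of the 99 values, and above 0 for 20 and below 0 for 9 of the 90. Between Tom+ and Tom-, intervals lay above 0 for 12 and below 0 for 16 of all 72 values of the pair labelled CD45-, and above 0 for 0 and below 0 for 32 of the 63 of the pair labelled CD45+. Intervals that excluded 0 thus also occurred between libraries of the same Tom label. The share of all genes whose intervals excluded 0 was not computed, so these interval counts have no background. An interval is also narrower the more UMIs a gene has. The median Tom+ to Tom- log2 ratio over all genes was below 0 for every class or cluster of the CD45+ libraries (-0.19 to -0.02). For the CD45- libraries that median ran from -0.21 to 0.00. CD45+ Tom+ took part in 18 of the comparisons by class, and there H2-K1 was lower in it in 18, B2m in 17 and H2-D1 in 16, with medians of -0.14, -0.13 and -0.12. These 18 are not separate looks. The 7 classes and clusters of the pair labelled CD45+ all recur among the 11 of the Tom+ libraries, with the same CD45+ Tom+ values. CD45+ Tom+ is also 1 side of each ratio of the pair labelled CD45+. Its median mitochondrial share was 3.34% against 3.23% to 3.33% in the others, and its smaller cell number was 1927, and the part of either in the ratios was not tested.

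The wider pathway was taken from lists of genes, each described by its counts. Of 7 other class I heavy chains that reached 20 CPM in a class, 4 were highest in NK cell-like cells, as were 5.78% of all genes that reached that level, among them H2-Q7 (class mean 1104 against 24.5 in macrophage-like cells) and H2-Q6 (393 against 6.38 in cluster 2). H2-Q10 was the exception with most range, at 334 in neutrophil-like cells. The Qa genes are near copies of each other, so their split is uncertain. Of the 3 genes of the inducible proteasome and its activator outside the 9, Psme1 and Psme2 were highest in dendritic-like cells (597 and 301), like Psmb8 and Psmb9, and Psmb10 in monocyte-like cells (179). Dendritic-like cells led for 4.47% of all genes that reached 20 CPM in a class. The 8 constitutive proteasome genes had a median fold of 2.86 from highest to lowest class, and Psmb8 and Psmb9 had a median of 9.68.

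Interferon genes differed by class as well. Ifng, which codes for interferon-gamma, had its highest class mean in NK cell-like cells (210.4), then T cell-like cells (48.4). Ifngr1 was highest in T cell-like (836) and NK cell-like cells (791), the classes that also held most Nlrc5. Ifngr2, for the other chain of that receptor, went another way. It was highest in cluster 2 (137) and lowest in NK cell-like cells (4.52), with 46.7 in T cell-like and 43.9 in APC-like cells. Of 11 interferon-gamma response genes, 5 were highest in mesothelial-like cells and 4 in cluster 12, each of which led for 9.59% of all genes that reached 20 CPM in a class. Gbp2, a GTPase that interferon-gamma induces, had a class mean of 501 in mesothelial-like and 54.6 in APC-like cells, and 44.2 in dendritic-like cells. Dendritic-like cells, first for Psmb8, Psmb9 and Tap1, were the lowest class for Gbp3, Gbp7 and Igtp.

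**Figure D5:**
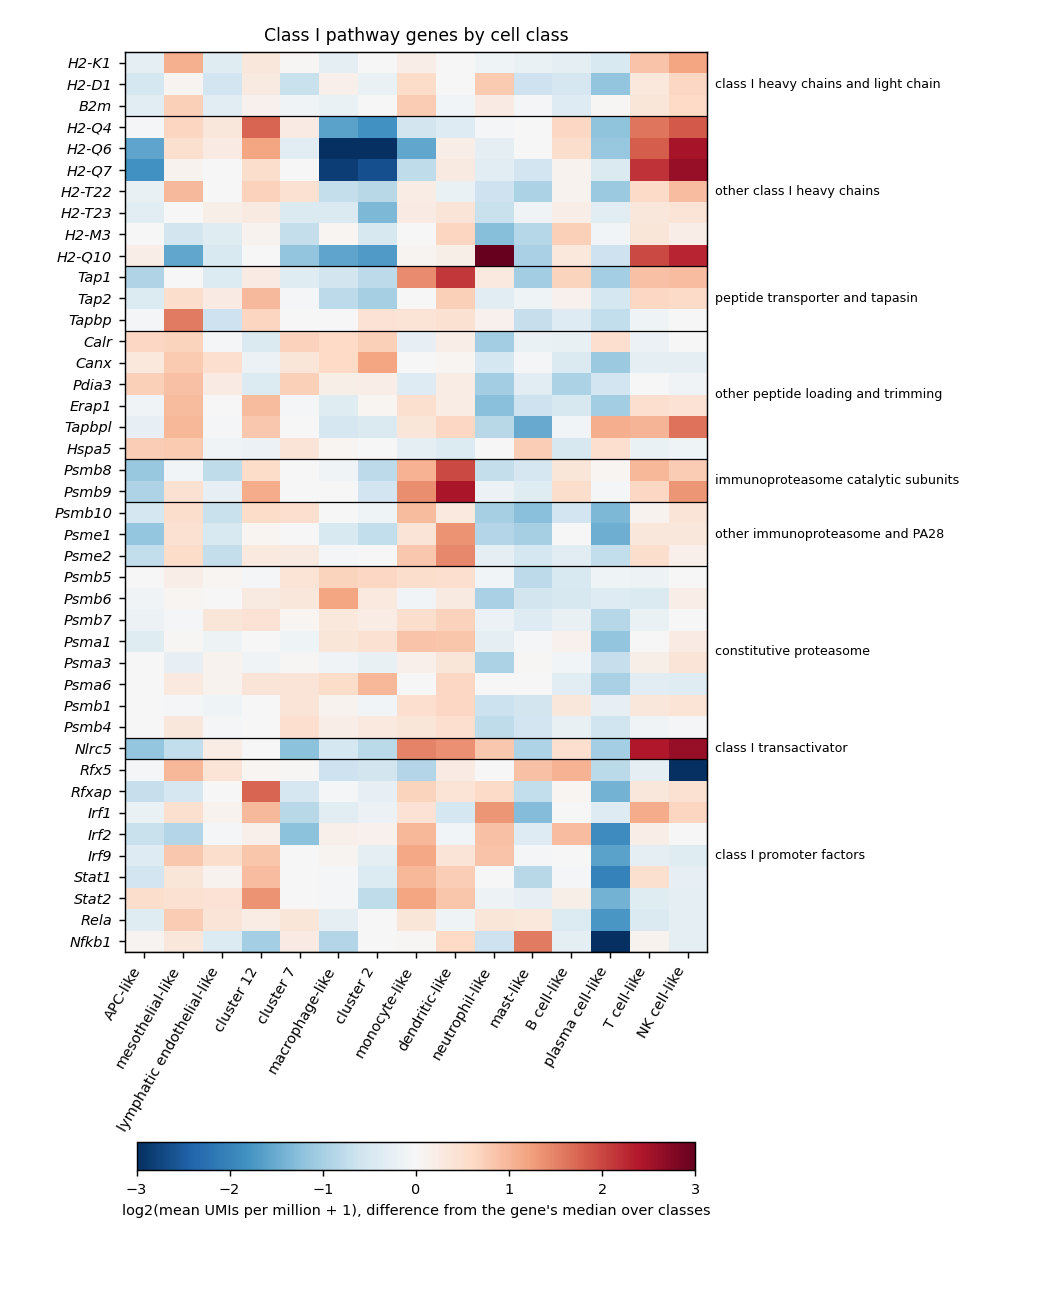
Class means of the pathway genes, rows grouped by list and columns by class or cluster, coloured by log2(CPM + 1) as the difference from each gene's median over classes. Dendritic-like cells stand out for Tap1, Psmb8 and Psmb9, NK cell-like and T cell-like cells for Nlrc5 and for H2-Q4, H2-Q6 and H2-Q7, and mesothelial-like cells for Tapbp.

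By tdTomato, the other class I heavy chains had 0 of 7 past 1.5-fold in APC-like cells of either pair and 0 of 6 in macrophage-like cells of either pair. Of all genes, 1.29% to 3.57% were past that fold in a given direction and pair in APC-like cells, and 2.3% to 3.05% in macrophage-like cells. In the pair labelled CD45- 1 of 7 was lower in T cell-like cells (H2-Q10, -0.83) and 1 of 7 in B cell-like cells (H2-Q7, -0.65), where 14.4% and 19.1% of all genes were lower. In the pair labelled CD45+ 0 of 7 passed in either. The constitutive proteasome had 0 of 8 in each of APC-like, macrophage-like, T cell-like and B cell-like cells in both pairs. Over these classes and pairs, 1.29% to 19.1% of all genes were past the fold in a given direction. In APC-like cells the interferon-gamma response list had 2 of 10 higher and 0 lower in each pair, where 2.15% and 2.8% of all genes were higher. Its median log2 ratio was 0.01 and 0.11, against -0.04 and -0.05 over all genes. Cd274, which codes for PD-L1, was at 1.58 (95% interval 1.16 to 1.999) and 1.52 (95% interval 0.97 to 2.03). Of the type I interferon response genes in these cells, 3 of 9 were lower in the pair labelled CD45- and 5 of 8 in the pair labelled CD45+. Among them was Ifit3, at -1.19 and -1.32. The median of that list was -0.42 and -0.71, and 1.29% and 3.57% of all genes were lower. In T cell-like cells 4 and 5 of 10 class I promoter factors were lower, with Stat2 at -0.94 and -1.32, and 4 and 5 of 10 interferon-gamma response genes, with Igtp, a GTPase of that response, at -0.40 (95% interval -0.90 to 0.10) and -1.72 (95% interval -2.63 to -0.92), where 14.4% and 15.7% of all genes were lower. Receptors that read class I had 6 of 9 lower in T cell-like cells of both pairs and 1 and 3 of 9 higher (8.9% and 9.95% of all genes), with Klra4, a Ly49 receptor of natural killer cells, at 1.65 and 1.67, and Cd8a, the co-receptor of cytotoxic T cells, at -1.58 and -1.55. The T cell-like libraries differed in their mix of cluster 9 and cluster 11, and the part of that mix in these list counts was not tested.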

How the data were processed

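Gonadal adipose cells of 4 libraries were sequenced with the 10x Chromium 3′ kit. The authors deposited, per library, a matrix of UMI counts per gene and barcode, not normalized, made per the labels' notes with Cell Ranger 3.0.2 on mm10. How reads shared between genes were treated is not given in the sources used here.

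Barcodes were kept by the filter the study states, with gene counts between 1000 and 7000 and less than 8% of UMIs from mitochondrial genes. Doublets were scored in each library with Scrublet (scanpy 1.11.5), and the highest scores were left out, at a rate of 0.8% for every 1000 barcodes. Counts were scaled to 10000 per cell, and clustered (2000 variable genes, 30 components, 15 neighbours, Leiden resolution 1, leidenalg 0.10.2), with the 9 genes, the listed genes and tdTomato left out of the clustering. A cluster took a class name when at least 3 of its markers reached 20 CPM and 4 times the median over clusters, unless an unrelated class reached 80% of its share of raised markers or led its 10 top genes. These limits were set after the data were seen. Counts were summed per class and library. Intervals were exact Poisson, exact binomial (Clopper-Pearson) or conditional exact for ratios (scipy 1.17.1), at 95%, and cover counting error only. With 1 library per group no test was run, and a gene is counted when past 1.5-fold at a mean of at least 5 CPM. The 9 genes, the lists and the classes were chosen with earlier results of these data known. Named genes are the 9, up to 4 examples per list with the largest and smallest ratios, the 3 most alike genes per member, and Ptprc, tdTomato and Cdkn2a; genes named beside a cluster fall outside that rule, as do other pathway genes given by class. Promoters and positions came from RefSeq (GRCm38.p6) and GENCODE.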

Additional observations from a re-analysis of the deposited data

Results flagged for a closer look

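For 5 values the 2 pairs of libraries gave Tom+ to Tom- ratios whose intervals excluded 0 on opposite sides, higher in Tom+ in the pair labelled CD45- and lower in the pair labelled CD45+. The difference was not tested, since each group is 1 library. In APC-like cells the log2 ratio of the first pair minus that of the second was 0.24 for H2-K1 (0.13 and -0.11), 0.20 for H2-D1 (0.09 and -0.11) and 0.38 for B2m (0.06 and -0.33). In cluster 2 it was 0.22 for H2-K1 (0.13 and -0.09) and 0.21 for H2-D1 (0.06 and -0.15). CD45+ Tom+ was the lower library for these genes also against CD45- Tom+, which has the same Tom label.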

How the results depend on the processing

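No paired analysis was possible because each group is 1 library. Of 24 counts, all 24 stayed within 1.5 times with doublets kept and without shared barcodes, and 16 did so with cells thinned to 2000 UMIs. Genes higher in leukocyte-like classes of CD45- Tom+ numbered 1, but 0 with every cell weighing the same or at resolution 2, 3 with totals without immunoglobulin and other abundant UMIs, and 2 with the looser cell filter (500 genes, 20% mitochondrial). In CD45+ Tom+ they numbered 3, but 5 and 1 under the last 2 settings. Of 0 genes higher in Tom+ APC-like cells of the pair labelled CD45-, the count became 1 (Psmb8) with the looser filter (log2 ratio 0.79), resolution 2 (0.60) and 4000 variable genes (0.68), against 0.33 as reported. Genes lower in Tom+ in the pair labelled CD45- went from 0 to 1 in macrophage-like cells (equal weight, thinned) and T cell-like cells (thinned, looser filter), and from 1 to 0 in B cell-like cells (equal weight, thinned), where thinning also gave 1 higher. In the pair labelled CD45+, thinning gave 1 higher and 1 lower in APC-like, 1 instead of 2 lower in T cell-like and 1 lower in B cell-like cells, and 1 mix of clusters gave 1 lower in T cell-like cells. Thinned Nlrc5 in B cell-like cells of the pair labelled CD45- reversed, to 0.81. The cause of these shifts was not tested. Nlrc5 rests on few UMIs, so that its ratios have wide intervals.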
